A study of Mus musculus with 8 samples.

Results

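The 1399 sequences described here are distinct reads that the deposited table places at 1 position of the mouse genome and gives no miRNA or tRNA hit. They were selected from 11568 distinct listed sequences. An empty hit and a single genomic match left 1451 sequences. Those that were 1 substitution away from a sequence with a miRNA or tRNA hit, or that extended such a sequence at its 3′ end by 1 to 3 nucleotides, were then removed. Of the 1399 sequences, 391 were 16 to 29 nucleotides long, 411 were 30 to 49 and 597 were 50 to 80. Each is named below by "seq" and its index number in the deposited table.

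The cells were MIN6B1, a mouse insulinoma line derived from pancreatic beta cells, transfected with control plasmid or with one that expresses the HENMT1ΔC-T6B methyltransferase. Total RNA from each was used without oxidation or after oxidation with NaIO4 (sodium periodate), and small RNA libraries were made from 5 ng. The 4 groups, each of 2 libraries, were control non-oxidized, control oxidized, methyltransferase non-oxidized and methyltransferase oxidized RNA. The labels do not say whether the libraries of a group came from separate cultures, so p-values measure only the spread between these samples, which may be technical. They give neither the share of cells that took up plasmid nor a catalytically inactive control, and all cells kept their own small RNAs.

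HENMT1 is a methyltransferase that adds a methyl group to the ribose at the 3′ end of small RNAs, and T6B is a peptide that binds Argonaute proteins. Periodate oxidizes the free hydroxyl pair of an unmethylated 3′ end, after which an adapter can no longer be ligated. Small nucleolar RNAs (snoRNAs) guide the modification of ribosomal RNA and are mostly cut out of the introns of host genes. In the box C/D family, a box C motif near the 5′ end and a box D motif near the 3′ end pair in a short stem and bind the core proteins that protect both ends. Y RNAs are short RNA polymerase III transcripts bound by the Ro60 protein, and pieces of them are common in small RNA libraries.

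By exact match to GENCODE M21 transcripts (GRCm38), 1258 of the 1399 sequences lay in sense on an annotated transcript, 28 matched a transcript in antisense only and 113 matched none. They fell into 201 loci, so many share bases and a source transcript. The 118 snoRNA genes held 914 sequences, or 65.3% of all, and 898 of these lay inside a longer host gene. Gas5 was the host of 108 sequences, Snhg1 of 81, 2410006H16Rik of 71 and Rps3a1 of 47. A further 140 sequences lay in Gm42418, which RefSeq lists as the 18S ribosomal RNA-related pseudogene Rn18s-rs5, 90 in the Y RNA genes Rny1 and Rny3, 35 in mitochondrial tRNA genes and 33 in an intron of Snrpb, which encodes a spliceosome protein. No sequence lay in an imprinted snoRNA cluster, a spliceosomal snRNA, a histone gene, vault RNA, 7SK, 7SL or any of the listed beta cell genes.

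In snoRNA, scaRNA, Y RNA and mitochondrial tRNA genes each sequence was sorted by its ends. An end counted as held when it lay within 5 nucleotides of, or beyond, the annotated end. By this rule 231 sequences were full length, 738 were 5′ pieces that ended inside the RNA, 27 were 3′ pieces and 56 were internal. All 231 full-length sequences were 50 to 80 nucleotides long.

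As an example of the main contrast, sequences are given from Snord37, a C/D box snoRNA in an intron of Eef2 (chr10:81178949-81179013, plus strand, GRCm38). The forms below start at the same base and differ only in length. In printed sequences of at least 50 nucleotides, capitals mark TGATGA, the letters of box C, near the 5′ end. They also mark CTGA, the letters of box D, near the 3′ end. The same letters elsewhere, or in shorter sequences, are left in lower case.
seq1763: ccaccatgatgacggaaattcttcact
seq1773: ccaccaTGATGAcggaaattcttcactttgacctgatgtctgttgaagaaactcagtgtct
seq1777: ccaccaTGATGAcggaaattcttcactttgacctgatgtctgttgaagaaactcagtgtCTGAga
seq1780: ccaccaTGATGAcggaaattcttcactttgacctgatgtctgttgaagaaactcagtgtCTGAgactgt

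The Y RNA pieces show the same 2 kinds of end outside the snoRNAs. Rny1 gave the 5′ piece seq4900 (chr6:47788158-47788180, minus strand) and seq3462, which ends 2 nucleotides before the annotated 3′ end (chr6:47788071-47788098). Rny3 gave the 5′ piece seq5244 (chr6:47781624-47781647, plus strand) and seq3202, which also ends 2 nucleotides before the annotated end (chr6:47781697-47781723).
seq4900: ggctggtccgaaggtagtgagtt
seq3462: cttctcactactgcacttgactagtctt
seq5244: ggttggtccgagagtagtggtgtt
seq3202: ctcccactgcttcacttgaccagcctt

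Listed counts per library ranged from 295094 in control oxidized RNA to 6641250 in control non-oxidized RNA, and these sequences held 1.28% to 8.84% of them. The table lists only sequences with at least 2 counts in each methyltransferase oxidized library and at least 10 in their sum, so the totals are not full depths and any contrast with that group carries this selection. Within groups, Pearson's r of log2 values across 806 of these sequences, which are not independent replicates, ranged from 0.74 in methyltransferase oxidized RNA to 0.956 in control non-oxidized RNA. Both listed beta cell markers, miR-375-3p and miR-7a-5p, were present and together held 15.4% to 16.3% of listed counts in control non-oxidized RNA. Of 13 marker miRNAs of neurons, liver, muscle, blood, mesenchyme and endothelium, 4 were listed (miR-124-3p, miR-9-5p, miR-122-5p and miR-126a-3p) and together held at most 0.0791% of a library, and the other 9 were not listed.

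Sequences that ended at box D were nearly lost from oxidized control RNA. Among sequences of 50 to 80 nucleotides in Snord and other snoRNA genes (Snora genes left out), 252 ended at most 8 bases after their last CTGA, and this grouping uses no annotated end. It reads letters only, so a CTGA inside the RNA can count. Of the 252, 40 ended more than 5 nucleotides before the annotated end. These 40 held 29015 and 39177 counts in control non-oxidized and 692 and 273 in control oxidized RNA. Together the 252 held 148674 and 210728 counts in the control non-oxidized libraries and 1098 and 430 in the control oxidized libraries. With the methyltransferase they held 207121 and 321369 counts without oxidation and 12639 and 6442 after it. The 232 sequences that did not end there ran the other way, with 546 and 617 counts in control non-oxidized, 3967 and 1344 in control oxidized, 766 and 1901 in methyltransferase non-oxidized and 2985 and 3512 in methyltransferase oxidized RNA. The plot of summed counts by 3′ end shows that the sequences ending at box D outnumber the others in 6 of the 8 libraries, and that the order is turned only in the 2 control oxidized libraries. Listed totals differ between these libraries, so each sum is to be read against the other sum of the same library. As shares of listed counts, sequences ending at box D held 2.76% and 3.17% in control non-oxidized and 0.25% and 0.146% in control oxidized RNA. With the methyltransferase they held 5.67% and 6.58% without oxidation and 0.408% and 0.263% after it. Those ending elsewhere held 0.0101% and 0.00929%, 0.905% and 0.455%, 0.021% and 0.0389%, and 0.0963% and 0.144% in the same order.

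**Figure D1:**
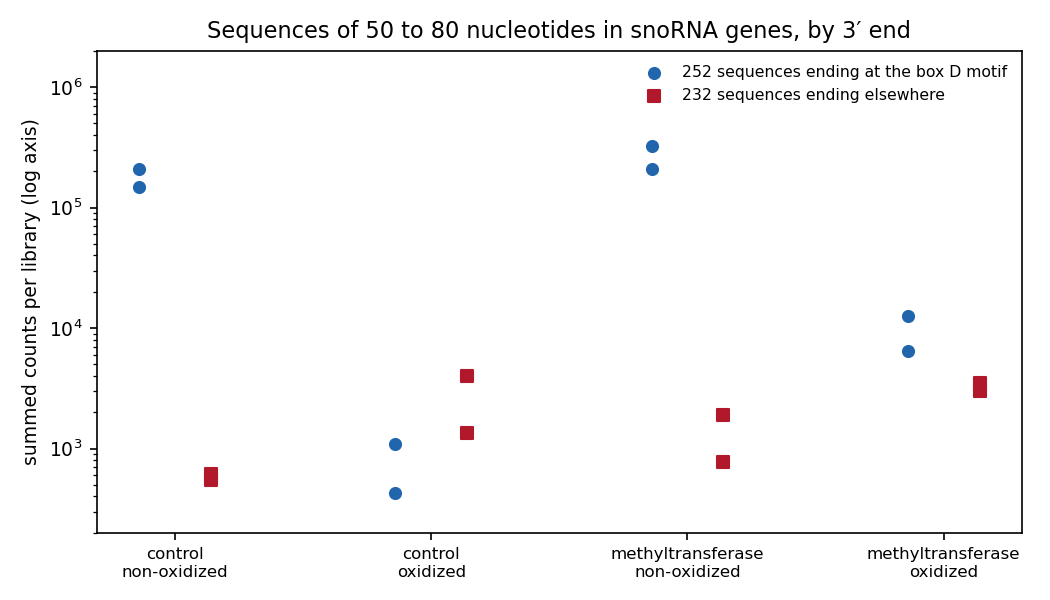
Summed counts per library (log axis) of the 252 sequences that end at the box D motif (circles) and the 232 that end elsewhere (squares), both 50 to 80 nucleotides long and in snoRNA genes. Each point is 1 library and each group has 2. Circles lie above squares in every group except control oxidized RNA, where they fall to 1098 and 430 counts.

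Across the whole table, edgeR's quasi-likelihood test with TMM scaling was fitted to 9851 sequences, 1250 of them from this set, and a call is an adjusted p under 0.05 over all of them. Oxidation of control RNA lowered 291 and raised 169 of the 1250 tested, against 46.4% lowered and 18.4% raised among all sequences tested. Of the sequences ending at box D, 225 of 252 were tested, 191 fell and 4 rose, with a median log2 fold change of -8.12. Setting groups with no counts to 3 counts per library brought this median to -4.70. Among the 38 of them tested that ended more than 5 nucleotides before the annotated end, 20 fell and 4 rose, with a median of -4.18. Of those not ending at box D, 207 of 232 were tested, 3 fell and 50 rose, with a median of 2.10, and the median over all sequences tested was -1.14. TMM multiplied the control oxidized totals by more than 7, so scaling matters here: with total counts the medians were -6.09 and 6.35, with 135 and 0 sequences falling. That scaling moved the median of all sequences by 4.30 in this contrast and by -2.99 for methyltransferase against control in oxidized RNA. Sequences absent from the control oxidized libraries passed the filter on low counts only through other groups, so these counts describe the tested sequences and are not a test of the whole set.

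The position of the last base against the annotated 3′ end gave a like ordering over the tested sequences with a form. The median change on oxidation of control RNA was -6.95 for the 72 sequences that ran past the annotated end and -10.03 for the 35 that ended on it. It was -8.16 for 57 sequences ending 1 to 2 nucleotides before it and -6.90 for 55 ending 3 to 5 before it. From 6 to 8 nucleotides before the end the median was 0.91 (n = 49), with 5 sequences rising and 17 falling. From 9 to 12 nucleotides before the end the median was 2.25 (n = 60), and beyond 40 nucleotides it was 0.81 (n = 334). The plot of fold change by position shows this change between 3 and 12 nucleotides from the end.

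**Figure D2:**
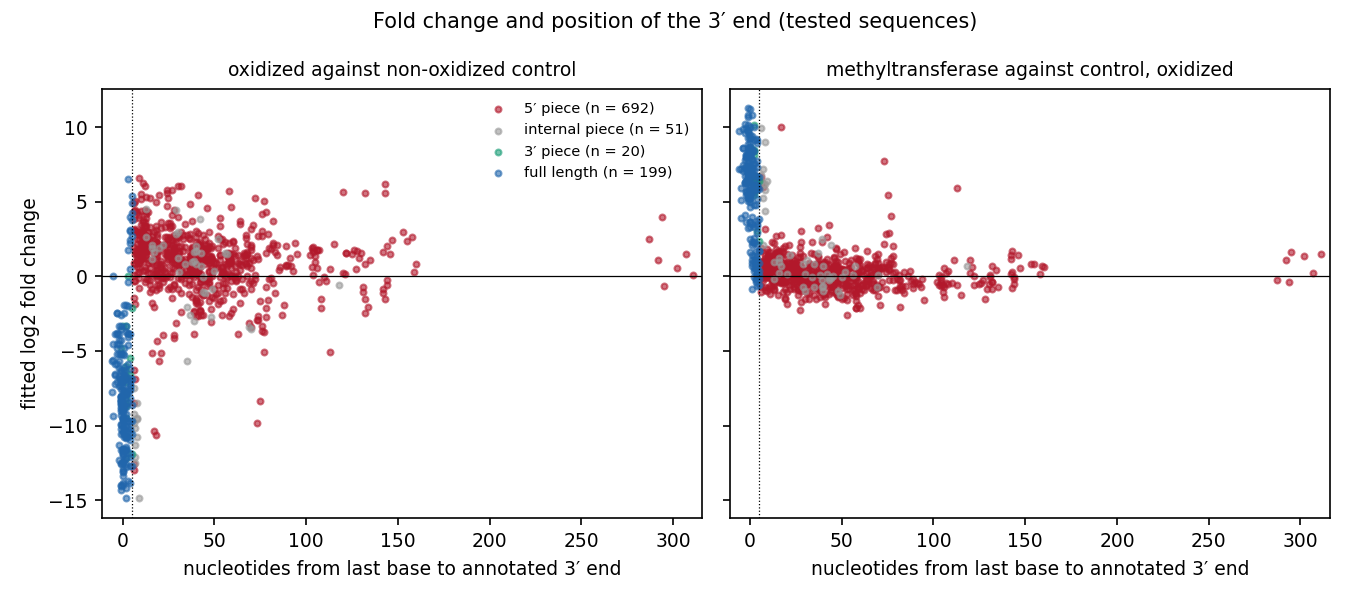
Fitted log2 fold change (y axis) of tested sequences in snoRNA, scaRNA, Y RNA and mitochondrial tRNA genes against the distance of their last base from the annotated 3′ end (x axis, nucleotides, negative beyond the end). The dotted line marks 5 nucleotides and colours mark the 4 forms. Full-length sequences lie mostly below 0 on oxidation of control RNA (left) and above 0 for methyltransferase against control in oxidized RNA (right), whereas 5′ pieces lie around 0 on the right.

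Snord37 shows the step at single bases. The 65-nucleotide seq1777, which ends 2 bases after box D, had 14718 and 16435 counts in control non-oxidized RNA and 8 and 5 in control oxidized RNA. It had 23898 and 42295 counts in methyltransferase non-oxidized RNA and 346 and 75 in methyltransferase oxidized RNA. Its log2 fold change on oxidation of control RNA was -11.59 (SE 0.83, adjusted p = 5.83e-07, edgeR), and methyltransferase against control in oxidized RNA gave 5.01 (SE 0.68, adjusted p = 8.53e-05, edgeR). Both oxidized groups were far below their non-oxidized groups and did not overlap each other. The 61-nucleotide seq1773, which stops inside box D, had 5 and 4 counts in control non-oxidized, 82 and 26 in control oxidized, 9 and 27 in methyltransferase non-oxidized and 62 and 43 in methyltransferase oxidized RNA. On oxidation of control RNA it rose by 3.08 on the log2 scale (adjusted p = 0.00231, edgeR), in the direction opposite to seq1777. The 69-nucleotide seq1780 reaches 4 bases past the annotated end and had 12 and 9, 0 and 0, 53 and 40, and 153 and 100 counts in the same order of groups. It passed the threshold for methyltransferase against control in oxidized RNA (adjusted p = 1.17e-05, edgeR), with no counts in either control oxidized library. The 27-nucleotide seq1763 had 24 and 26, 106 and 78, 9 and 46, and 53 and 35 counts, and the oxidized libraries of both plasmids held more counts than the control non-oxidized ones, but oxidation of control RNA gave an adjusted p of 0.052 (log2 1.49, edgeR).

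**Figure D3:**
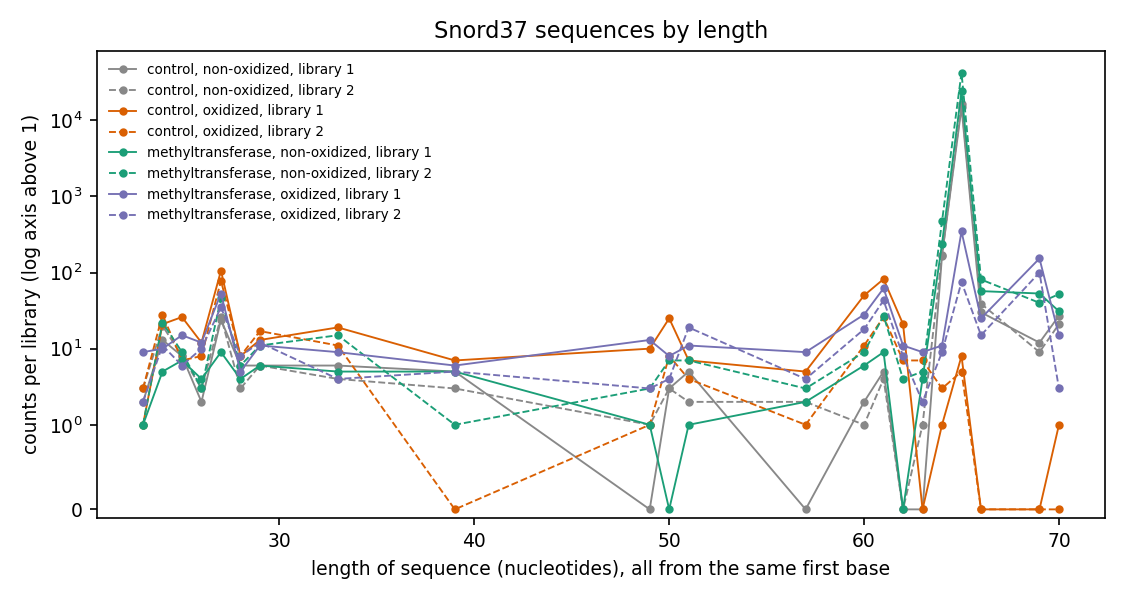
Counts per library (y axis, log above 1) of the 22 Snord37 sequences that start at the same base, by length in nucleotides (x axis). Lines are the 8 libraries, solid for the first and dashed for the second of each group. At 65 nucleotides the non-oxidized libraries peak at 14718 to 42295 counts and the control oxidized ones hold 8 and 5, whereas at 61 nucleotides the control oxidized libraries hold 82 and 26.

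Of the 231 full-length sequences, 199 were tested: 172 fell on oxidation of control RNA and 8 rose, with a median of -8.00 (-4.59 with groups of no counts at 3 per library). All 8 that rose ended 3 to 5 nucleotides before the annotated end, and none of the 8 ended at box D. They came from 4 genes and held 10 and 11 counts in control non-oxidized and 252 and 84 in control oxidized RNA. With total counts in place of TMM, 117 full-length sequences fell and 16 rose. Among the sequences named for this contrast, seq5320 from Gm25878, a snoRNA gene in Zfas1, was an internal piece by the annotated ends. It had 2307 and 4380 counts in control non-oxidized and 0 and 0 in control oxidized RNA, at least 1400-fold lower. At the other end the 67-nucleotide Rny3 5′ piece seq5286 had 21 and 7 against 197 and 73 counts and rose by 2.78 (SE 0.75, adjusted p = 0.00658, edgeR), a call lost without the second control non-oxidized library (2.17).

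Named by abundance, seq9812 from Gm26224, a snoRNA gene in Gas5 (chr1:161035401-161035466, plus strand), was an internal piece by the annotated ends. It had 13912 and 17129 counts in control non-oxidized and 11 and 5 in control oxidized RNA. In methyltransferase RNA it had 16947 and 26284 counts without and 48 and 18 with oxidation, and the log2 difference between plasmids in oxidized RNA was 2.11 (SE 0.51, adjusted p = 0.00459, edgeR). That call was lost with upper-quartile scaling (1.24) and without the first methyltransferase oxidized library (1.44), and total counts turned its sign (-0.89). Gas5 is a noncoding gene whose introns carry many C/D box snoRNAs. The Snord68 sequence seq10347, from an intron of Rpl13 (chr8:123103033-123103105, plus strand), ended 18 nucleotides before the annotated end but 2 bases after a CTGA. It had 6746 and 9955, 11 and 3, 8828 and 12895, and 10 and 6 counts in control non-oxidized, control oxidized, methyltransferase non-oxidized and methyltransferase oxidized RNA. The oxidized groups overlapped, and the log2 difference between plasmids in oxidized RNA was 0.33 (SE 0.56, adjusted p = 0.695, edgeR). A shorter Snord68 form that stops inside the RNA, seq10335, had 18 and 14, 245 and 86, 30 and 119, and 141 and 147 counts in the same order, and rose by 2.89 on oxidation of control RNA (SE 0.65, adjusted p = 0.0023, edgeR).
seq9812: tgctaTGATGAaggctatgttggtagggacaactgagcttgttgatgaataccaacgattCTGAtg
seq10347: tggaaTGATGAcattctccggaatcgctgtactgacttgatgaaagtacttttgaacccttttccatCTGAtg
seq10335: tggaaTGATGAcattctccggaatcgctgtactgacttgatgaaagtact

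TGATGA was searched on both strands and, as written, was present in 67.5% of all 597 sequences of 50 to 80 nucleotides and in 13.4% of the 813 other listed sequences of that length. CTGA, which can share its TGA with that motif, was present in 74.4% and 32.6% of them. On the reverse strand TGATGA was in 0.168% and 0.0%, and CTGA in 21.4% and 43.2%. Among the 231 full-length sequences, 77.5% held TGATGA and 98.3% held CTGA, and in 88.7% a CTGA lay within the last 12 bases. Among the 274 5′ pieces of 50 to 80 nucleotides that last share was 9.85%. A match is a description of letters and not of a bound site.

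Within single genes, full-length sequences and 5′ pieces could be set side by side. In 41 snoRNA genes with tested sequences of both forms, the median full-length change on oxidation of control RNA was below that of the 5′ pieces in 40, with a median difference of -9.59 on the log2 scale. The exception was Gm24016, at 0.52 for its full-length sequence and -0.57 for its 5′ pieces. For methyltransferase against control in oxidized RNA the full-length value was the higher in 40 of 41 genes (median difference 5.84), Snord110 being the exception.

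Shares within a gene and library need no scaling between libraries. For 33 snoRNA genes whose summed counts reached 20 in each library, the median share of counts ending at box D was 97.0% and 97.7% in the control non-oxidized libraries and 1.94% and 0.454% in the control oxidized ones. It was 98.1% and 97.8% in methyltransferase non-oxidized and 49% and 32% in methyltransferase oxidized RNA. The share was lower in both oxidized than in both non-oxidized control libraries in 33 of 33 genes. It was higher in both methyltransferase oxidized than in both control oxidized libraries in 30 of 33 genes and lower in none. For calls of single sequences in that contrast the background was 42.3% higher and 3.92% lower of all sequences tested. Since only forms kept in methyltransferase oxidized RNA are listed, rarer forms lost there do not enter these shares.

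The genes differed in how much of this end remained. In Snord65 (host 2410006H16Rik) the share in methyltransferase oxidized RNA was 91.1% and 80.4%, against 12.8% and 26.2% in control oxidized RNA. Gm23650, in Nop56, kept 97.4% and 96.9%, but its control oxidized libraries held 59.4% and 0.0%. Snord2 (host Eif4a2) kept 76.9% and 59.5% against 0.0% in both control oxidized libraries. Snord100 (host Rps12) kept 2.94% and 1.53%, and Snord68 kept 19.4% and 9.38%. In Snord110 (host Nop56) the oxidized libraries overlapped, with 73.6% and 75% in control and 84.2% and 70.8% in methyltransferase RNA. In each of these 6 genes the first methyltransferase oxidized library held the larger share. Over Snord and other snoRNA genes (Snora genes left out), full-length and 3′ pieces made up 51.6% and 33.9% of counts in the 2 methyltransferase oxidized libraries. The 95% Wilson intervals were 51.0% to 52.3% and 33.2% to 34.6% (counting error only). The same share was 3.88% and 3.05% in control oxidized RNA and 77.0% to 79.9% in non-oxidized RNA. An exact two-sided permutation test was run on the log2 ratio of these counts to those of the other pieces. With 2 libraries against 2 it cannot go below 0.33, the value reached in all 4 contrasts, the plasmids in non-oxidized RNA included.

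**Figure D4:**
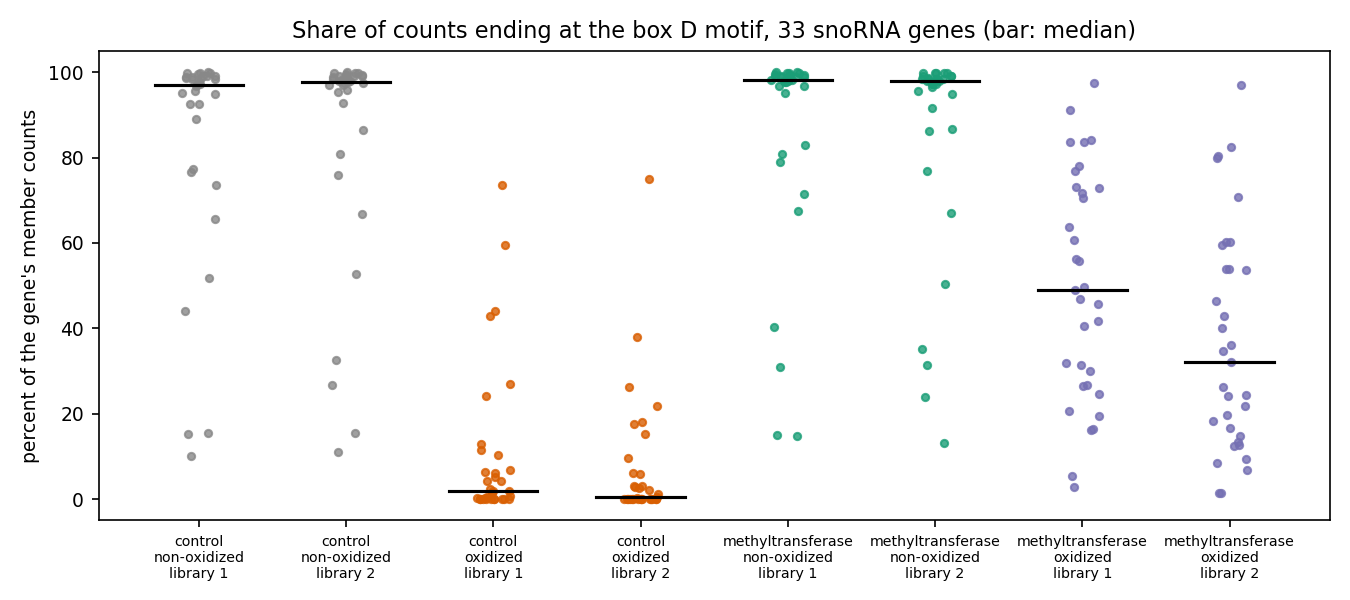
Share of each gene's counts that end at the box D motif (y axis, percent), for 33 snoRNA genes in the 8 libraries (x axis). Points are genes and bars are medians. The median is 97.0% or more in the 4 non-oxidized libraries, 1.94% and 0.454% in control oxidized and 49% and 32% in methyltransferase oxidized RNA.

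In oxidized RNA, methyltransferase against control raised 216 and lowered 12 of the 1250 sequences tested, against 42.3% and 3.92% of all sequences tested. The median over the 1250 was 0.36, below that over all sequences, 0.82. The raised sequences were mostly those with the RNA's own 3′ end: 178 of 225 ending at box D, 159 of 199 full-length sequences, 18 of 20 3′ pieces, and 16 of 692 5′ pieces. Medians were 6.16, 6.21, 6.35 and 0.14, or 2.49, 2.68, 2.05 and 0.14 with groups of no counts at 3 per library. No full-length sequence fell. With total counts, 99 of the full-length sequences rose and 32 fell, and of the 5′ pieces 4 rose and 513 fell. A minimum count in every group, which drops sequences absent from control oxidized RNA, left 2 full-length calls. In the authors' deposited table, 185 of the 231 full-length sequences and 19 of the 738 5′ pieces were higher in methyltransferase oxidized RNA at an adjusted p under 0.05, and 0 and 3 were lower. Of all 11568 sequences, the authors' deposited table had 46.2% higher and 0.994% lower.

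The named sequences of this contrast show how far the groups lay apart. The sequence seq1192 lies in an intron of Snrpb (chr2:130172908-130172978, minus strand), within a transcript annotated as a retained intron, and holds TGATGA near its 5′ end and CTGA near its 3′ end. It had 3777 and 4584 counts in control non-oxidized RNA, 0 and 0 in control oxidized RNA, 6146 and 13316 in methyltransferase non-oxidized RNA and 661 and 257 in methyltransferase oxidized RNA. It was at least 153-fold higher with the methyltransferase in oxidized RNA (adjusted p = 4.84e-06, edgeR) and at least 1760-fold lower in oxidized than in non-oxidized control RNA. The 33 Snrpb sequences together had 499 and 250 counts in control oxidized RNA, of which the 2 forms with its last base held 2 and 0.
seq1192: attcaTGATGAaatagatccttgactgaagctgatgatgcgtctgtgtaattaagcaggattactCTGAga

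The Snord65 form seq6630 had 14 and 15, 0 and 0, 72 and 107, and 377 and 279 counts, at least 113-fold higher with the methyltransferase in oxidized RNA. At the low end, seq3132, a 17-nucleotide 5′ piece of the Snhg1 snoRNA Gm25894, had 36 and 18 counts in control oxidized and 6 and 9 in methyltransferase oxidized RNA. Its log2 fold change was -1.67 (SE 0.53, adjusted p = 0.0204, edgeR), and the call was lost with DESeq2 size factors (-1.47), with DESeq2's own test (-1.49), with only the libraries compared (-1.24) and with a minimum in every group (-1.39). It was also lost without the first control oxidized library (-1.42) and without either methyltransferase oxidized library (-1.28 and -1.72). The 12 lowered sequences were 17 to 40 nucleotides long and came from 10 loci. The class ending at box D starts at 50 nucleotides, so it could hold none of them.

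Oxidation of methyltransferase RNA lowered 163 and raised 24 of the 1250 sequences, against 11.2% and 1.77% of all sequences tested. Full-length sequences made up 102 of the lowered and 1 of the raised. The authors' deposited table had 167 of the 1399 lower and 15 higher, against 9.77% and 1.31% of all sequences. The median was -2.37 for full-length sequences and 0.72 for 5′ pieces. Snord49a seq9842, from an intron of 2410006H16Rik, had 6703 and 8333, 2 and 0, 6668 and 12823, and 17 and 9 counts in the 4 groups, a log2 fold change of -9.80 (SE 0.65, adjusted p = 7.29e-06, edgeR). Snord68 seq10347 fell by 10.64. The named raised sequences were 5′ pieces by the annotated end, and both end 3 bases after a CTGA. Snord100 seq10629 (17 and 22, 196 and 108, 19 and 11, 112 and 138 counts) rose by 2.80 (SE 0.52, adjusted p = 0.0038, edgeR), a call lost without the second methyltransferase non-oxidized library (2.38). Gm24134 seq11062, in Rpl7a, rose by 1.86 (adjusted p = 0.0472, edgeR), a call lost without the filter on low counts (1.81) and without any 1 of 6 libraries, the control oxidized ones excepted (1.47 to 2.32). At 54 nucleotides seq11062 is 1 of the 252 sequences counted as ending at box D, yet it was not lowered. Its last base lies 17 nucleotides before the annotated end of Gm24134, so its CTGA lies inside the annotated RNA. Both also rose on oxidation of control RNA, by 2.54 and 2.04, the call for seq11062 being lost without the second control non-oxidized (1.71) or the first control oxidized library (1.39). The contrasts of oxidation with each plasmid share no libraries, but both come from 1 fit with a shared filter, scaling and estimate of spread.

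Forms of 1 snoRNA that differ by single bases at the 3′ end differed in how many counts remained after oxidation of methyltransferase RNA. In Snord65 the 74-nucleotide seq6629 had 8037 and 13241 counts without and 60 and 21 with oxidation, whereas seq6630, 1 base longer, had 72 and 107 without and 377 and 279 with it. Their log2 fold changes were -8.33 and 1.62 (adjusted p = 1.23e-05 and 0.0328, edgeR). The call for seq6630 was lost without any 1 of 6 libraries, the control oxidized ones excepted (1.39 to 1.84).
seq6629: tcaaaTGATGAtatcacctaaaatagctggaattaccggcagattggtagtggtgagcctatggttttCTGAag
seq6630: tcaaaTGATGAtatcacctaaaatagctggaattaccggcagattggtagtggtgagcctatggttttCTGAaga

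The Nop56 snoRNA Gm23650 gave -7.60, -4.25 and -1.92 for its forms of 69, 70 and 71 nucleotides (seq3118, seq3119 and seq3120), which had 28 and 7, 127 and 88, and 387 and 227 counts in methyltransferase oxidized RNA. These examples were chosen after their values were seen. Over 68 pairs of tested full-length forms that share a first base and differ by 1 base at the end, the longer form had the higher log2 fold change in 46 and the lower in 22. It was higher in 42 of the 50 pairs where the longer form was the rarer one before oxidation and in 4 of the 18 where it was the more abundant, so the rarer form had the higher value in 56 of 68. The listing requires counts in methyltransferase oxidized RNA and keeps a rare form only if it remained there. Where both forms had at least 1000 counts over the non-oxidized methyltransferase libraries, the longer form was higher in 7 of 10 pairs.

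The number of bases after CTGA gave no steady order. Among sequences ending at box D with at least 1000 counts over the non-oxidized methyltransferase libraries, 34 had 2 bases after CTGA, 10 had 3, 10 had 4 and 21 had 5. Their medians on oxidation of methyltransferase RNA were -7.97, -6.0, -6.76 and -5.75, and all of them fell. For methyltransferase against control in oxidized RNA the medians were 3.30, 4.60, 2.78 and 7.22, or 2.24, 3.28, 1.54 and 3.67 with groups of no counts at 3 per library, with 25, 7, 5 and 21 called higher. Abundance differed too, with median non-oxidized methyltransferase counts of 7500, 2570, 1580 and 2340, and its part in these values was not tested. The difference between the classes, chosen after values were seen, was not tested.

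Y RNA pieces that held the 3′ end were nearly absent from oxidized control RNA, while pieces from the 5′ end were mixed. The 15 pieces that held the 3′ end of Rny1 or Rny3 together had 828 and 1517 counts in control non-oxidized, 0 and 1 in control oxidized, 799 and 582 in methyltransferase non-oxidized and 335 and 411 in methyltransferase oxidized RNA. The 75 pieces from the 5′ end had 9740 and 9521, 14725 and 6973, 8028 and 14486, and 12696 and 8170 counts. As shares of listed counts, which differ between libraries, they held 0.181% and 0.143%, 3.36% and 2.36%, 0.22% and 0.296%, and 0.409% and 0.334%. In control oxidized RNA the 3′ pieces thus made up 0.0% and 0.0143% of Y RNA counts (95% Wilson upper bounds 0.0261% and 0.0812%), against 7.83% and 13.7% in control non-oxidized RNA. The methyltransferase libraries held 9.05% and 3.86% without and 2.57% and 4.79% with oxidation, which overlapped (exact two-sided permutation p = 0.667, on the log2 ratio of 3′ to 5′ pieces). Of 13 tested 3′ pieces, 13 fell on oxidation of control RNA and 12 were higher with the methyltransferase in oxidized RNA, whereas none passed the threshold on oxidation of methyltransferase RNA (median -1.09). Of 74 tested 5′ pieces, 18 fell and 5 rose on oxidation of control RNA under TMM, and 7 were higher with the methyltransferase in oxidized RNA. Among 5′ pieces of Snord and of other snoRNA genes more rose than fell on oxidation of control RNA (49 and 12, 66 and 20). Of all sequences tested, 46.4% fell and 18.4% rose in that contrast. With total counts 67 of the Y RNA 5′ pieces rose and 1 fell there, and 239 and 274 of the snoRNA ones rose and 3 and 2 fell. Between plasmids in oxidized RNA, total counts gave 1 Y RNA 5′ piece higher and 68 lower. Some Rny1 5′ pieces, named after their values were seen, went with the 3′ pieces. The 39-nucleotide seq4908, which ends 73 nucleotides inside the gene, had 121 and 75, 0 and 0, 113 and 41, and 14 and 39 counts. Oxidation of control RNA left it at least 41.6-fold lower, and between plasmids in oxidized RNA it was at least 9.76-fold higher with the methyltransferase (adjusted p = 9.87e-05 and 0.00114, edgeR). The 35-nucleotide seq4903 had 64 and 66, 5 and 0, 46 and 45, and 38 and 39 counts, with log2 fold changes of -5.08 and 4.06 (adjusted p = 0.000155 and 0.00106, edgeR), both calls lost with total counts (-0.75 and 1.12).

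**Figure D5:**
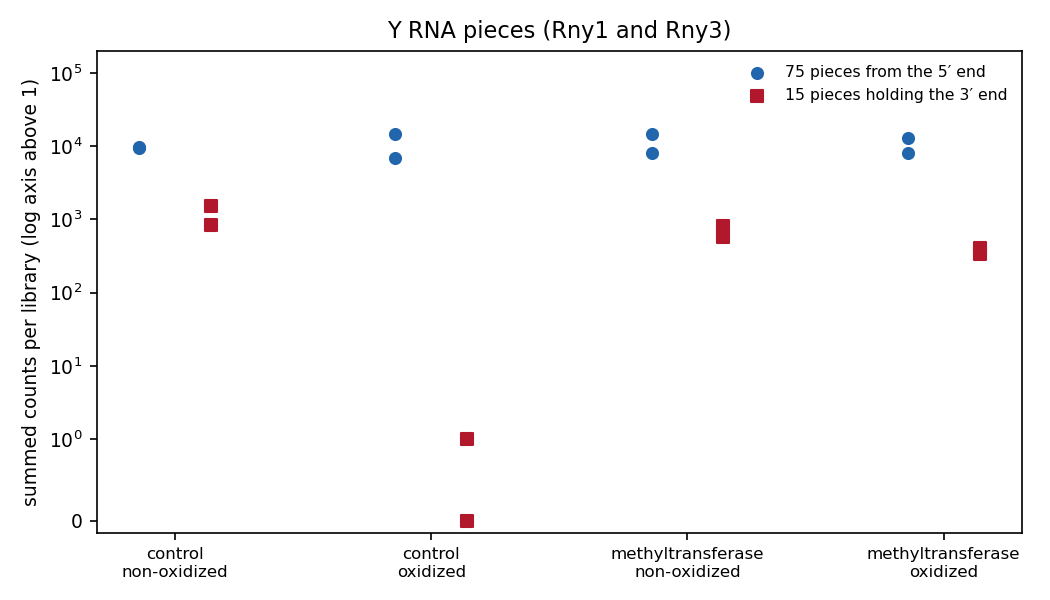
Summed counts per library (y axis, log above 1) of the 75 Y RNA pieces from the 5′ end (circles) and the 15 that hold the 3′ end (squares). Each point is 1 library. The 3′ pieces fall to 0 and 1 counts in control oxidized RNA and lie at 335 and 411 in methyltransferase oxidized RNA. The 5′ pieces lie between 6973 and 14725 counts in all 8 libraries, whose listed totals differ.

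Rny1 seq3462, the most abundant 3′ piece, had 355 and 650, 0 and 0, 328 and 225, and 126 and 174 counts. It was at least 211-fold lower in oxidized than in non-oxidized control RNA and, in oxidized RNA, at least 53.5-fold higher with the methyltransferase (adjusted p = 2.04e-06 and 1.3e-05, edgeR). Its oxidized methyltransferase libraries lay below its non-oxidized ones, at a log2 fold change of -1.12 (SE 0.48, adjusted p = 0.176, edgeR). Rny3 seq3202 had 65 and 94, 0 and 0, 66 and 64, and 48 and 42 counts, at least 33.4-fold lower and at least 15.6-fold higher in those contrasts. In contrast to these, the Rny1 5′ piece seq4900 was the most abundant sequence of 16 to 29 nucleotides, with 1927 and 1518, 4725 and 2591, 992 and 2599, and 2655 and 2025 counts. TMM-scaled CPM values were 1530 and 1220 in control oxidized and 986 and 938 in methyltransferase oxidized RNA, which did not overlap. The log2 difference was -0.52 (SE 0.43, adjusted p = 0.385, edgeR), which total counts (-3.54) and upper-quartile scaling (-1.42) turned into calls. The Rny3 5′ piece seq5244 had 1343 and 1681, 618 and 321, 1174 and 2179, and 848 and 655 counts. It fell by 2.11 on oxidation of control RNA and by 1.40 on oxidation of methyltransferase RNA (adjusted p = 0.000651 and 0.0342, edgeR). The first change turned sign with total counts (2.32) and its call was lost with upper-quartile scaling (-0.33). The second was lost under several scalings and filters (-1.33 to -0.50) and without any 1 of 5 libraries: either control non-oxidized, either methyltransferase oxidized, or the second methyltransferase non-oxidized (-1.45 to -1.02).

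The shorter sequences were mostly 5′ pieces, and how far they differed between groups depended on the scaling. Of the 391 sequences of 16 to 29 nucleotides, 218 were 5′ pieces and 8 were 3′ pieces, and of the 411 of 30 to 49, 246 and 7 were. On oxidation of control RNA 44 and 49 rose and 41 and 42 fell among 353 and 362 tested, with medians of 0.44 and 0.77. Scaling decided these calls: with total counts 311 and 323 rose and 9 and 2 fell. After seq4900 and seq5244, the most abundant of the shortest class were seq3131, a 16-nucleotide 5′ piece of Gm25894 (389 and 420, 104 and 84, 373 and 455, 58 and 40 counts), and seq3663, an 18-nucleotide internal piece of Snord118, the U8 snoRNA (174 and 134, 28 and 8, 166 and 103, 17 and 16 counts). Under TMM their log2 fold changes on oxidation of control RNA were -2.47 and -3.56, and both changed sign with total counts (1.95 and 0.82).

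In the middle class the most abundant sequence was seq884, a 49-nucleotide 5′ piece of the mitochondrial methionine tRNA gene mt-Tm, with 662 and 263, 16 and 8, 795 and 787, and 2 and 8 counts. Its log2 fold change was -5.68 on oxidation of control RNA and -7.49 on oxidation of methyltransferase RNA (adjusted p = 2.5e-05 and 6.14e-05, edgeR), and its last base lies 20 nucleotides inside the annotated gene. The call in control RNA was lost with total counts (-1.34). The 38-nucleotide internal piece seq9807 of Gm26224 had 153 and 148, 2 and 5, 159 and 212, and 5 and 7 counts and fell by 5.70 on oxidation of control RNA, a call also lost with total counts (-1.33). It ends 35 nucleotides inside the annotated gene but 2 bases after a CTGA. The Rny3 piece seq5251 (258 and 254, 340 and 159, 340 and 426, 392 and 257 counts) and the Rps3a1 piece seq1109 of Rnu73b (229 and 81, 49 and 31, 195 and 124, 19 and 21 counts) completed the class. Of these, seq1109 fell by 2.36 on oxidation of control RNA, a call lost without the first control non-oxidized library (-1.42) and with upper-quartile scaling (-0.60), and total counts turned its sign (1.99).

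As shares of listed counts, sequences of 50 to 80 nucleotides held 2.91% and 3.30% of control non-oxidized, 2.28% and 1.18% of control oxidized, 5.99% and 7.04% of methyltransferase non-oxidized and 0.685% and 0.532% of methyltransferase oxidized libraries. Sequences of 16 to 29 nucleotides stood at 0.225% ± 0.0345 (SD, n = 2) in control non-oxidized and 4.18% ± 0.228 (SD, n = 2) in control oxidized RNA, and at 0.314% ± 0.0289 and 0.427% ± 0.0565 (SD, n = 2) in methyltransferase RNA. None of the 12 comparisons overlapped, and each gave the smallest p of the exact two-sided permutation test, 0.33 (0.33 adjusted over 12). Counting only listed sequences with a genomic match turned the order of the longest class on oxidation of control RNA, from 3.55% without to 5.34% with it. The libraries then overlapped, at 3.35% and 3.75% against 7.06% and 3.62%, so the turned mean rests on the first control oxidized library.

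Without oxidation, no sequence of the set differed between the plasmids by edgeR at an adjusted p under 0.05, where 0 of all 9851 sequences (0%) passed. At an unadjusted p under 0.05, 81 were higher and 15 lower with the methyltransferase, DESeq2's Wald test called 3 higher, and the median over the 1250 was 0.39 against 0.05 over all sequences tested. The full-length sequences had a median of 0.53 and held 119487 and 171147 counts in control and 169857 and 262462 in methyltransferase non-oxidized RNA.

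By host or class, the shares of sequences higher with the methyltransferase in oxidized RNA lay below the 42.3% of all sequences tested (3.92% were lower). The Gas5 snoRNAs had 95 tested sequences, 22 higher and 2 lower for methyltransferase against control in oxidized RNA, with 15 of 17 full-length sequences higher and none of 53 5′ pieces higher. Sequences from snoRNAs in ribosomal protein genes had 60 higher and 2 lower of 313, with 57 of 68 full-length sequences and 3 of 242 5′ pieces higher. The Rpl13a snoRNAs had 4 of 19 higher, all of them among 6 full-length sequences. The most abundant, Snord33 seq4747, had 2670 and 5003, 1 and 1, 5624 and 4430, and 10 and 6 counts. The 32 tested sequences of H/ACA box snoRNAs, the family that guides pseudouridylation, were all 5′ pieces of longer RNAs: none was called in this contrast, and 8 rose and none fell on oxidation of control RNA.

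In the 18S locus Gm42418, 121 of 140 were tested and 0 were higher and 1 lower for methyltransferase against control in oxidized RNA. None of 10 tested scaRNA sequences was called in any of the contrasts on oxidized RNA, and of 35 mitochondrial tRNA sequences 9 fell on oxidation of control RNA, 6 on oxidation of methyltransferase RNA, and 2 were lower with the methyltransferase in oxidized RNA. Of 8 mitochondrial rRNA sequences 3 fell on oxidation of control RNA, led in abundance by mt-Rnr2 seq452 (62 and 84, 6 and 5, 75 and 91, 4 and 10 counts). With total counts 27 mitochondrial tRNA, 6 mitochondrial rRNA and 10 scaRNA sequences rose on oxidation of control RNA and 0 fell. Of all sequences tested, 46.4% fell and 18.4% rose in that contrast under TMM. Of the 87 tested sequences without a transcript match, 3 were higher and 1 lower with the methyltransferase in oxidized RNA. On oxidation of control RNA 9 of the 87 rose and 13 fell (70 and 2 with total counts). The 20-nucleotide seq11212 was the most abundant of these, with 145 and 121, 0 and 0, 117 and 121, and 24 and 36 counts, at least 56.3-fold lower in oxidized than in non-oxidized control RNA and, in oxidized RNA, at least 10.7-fold higher with the methyltransferase. The 22-nucleotide seq6825, from the lincRNA 5330434G04Rik, had 92 and 88, 0 and 0, 29 and 24, and 5 and 5 counts. The most abundant antisense sequence, seq10722, had 55 and 83, 0 and 0, 51 and 106, and 8 and 9 counts, and like the others was absent from both control oxidized libraries only.

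By edgeR's interaction test, the log2 change on oxidation was higher in methyltransferase than in control RNA for 179 sequences and lower for 10, against 39.6% and 3% of all sequences tested. Of the 179, 136 were full length.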

How the data were processed

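The authors deposited 1 table of 12608 lines with, per the file headers, a count of each distinct sequence in each of 8 libraries, the annotation hit, the number of genomic matches, and the authors' signed fold change, read as a score, with its adjusted p-value. Lines of 1 sequence were merged. Aligner, genome build and trimming are not given in the sources used here. Members and lists were chosen with earlier results of these data known, and the 3′-end classes, the Snord65, Gm22980 and Gm23650 forms and seq3202, seq4903 and seq4908 were chosen after values were seen.

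Sequences were matched exactly to GENCODE M21 transcripts (16-base seeds), so positions are GRCm38. The deposited counts of 4 groups entered edgeR 4.0.16 (R 4.3.3): filterByExpr kept 9851 sequences, TMM scaled them, and quasi-likelihood tests without a block were adjusted by Benjamini-Hochberg. On simulated data for oxidized methyltransferase against control RNA, 83 of 192 tested sequences changed 8-fold were called in the right direction, of 9851 sequences, with 0 unchanged called. Groups at 0 were set to 3 counts per library for bounds. A count of 0 allows up to 0.00102% of the smallest library. Intervals are 95% Wilson intervals and cover counting error only.

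Named sequences are, per length class, those of 4 loci with the highest control non-oxidized mean. Per contrast, they are the 2 highest and 2 lowest called of different loci with a mean of at least 50 and no overlap, and the most abundant of each list. Alternatives were other scalings (upper quartile, total counts, size factors from DESeq2 1.42.0), filters, DESeq2's Wald test, fewer libraries, a replicate block, sums by locus, other thresholds and other end distances. With fewer libraries the filter on low counts was applied anew. The sequences tested then differ from the main set, and counts of calls can pass the main count for that reason alone. Replicate numbers were not taken as pairs, since correlations of deviations were above 0.1 in only 3 of 6 pairs of groups (-0.035 to 0.424, highest between the non-oxidized groups), and replicates differed beyond sampling noise in each group.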

Additional observations from a re-analysis of the deposited data

Results flagged for a closer look

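Oxidation effects with the 2 plasmids were set against each other by edgeR's interaction test. Of 1250 tested sequences the change was higher with the methyltransferase for 179 and lower for 10, against 39.6% and 3% of all sequences tested. Full-length sequences made up 136 of the 179 and none of the 10. With total counts the split was 59 and 642. The largest interactions among sequences fit for naming were those of the Rny1 3′ piece seq3462 (11.03 on the log2 scale, adjusted p = 2.89e-05, edgeR) and of the Snrpb intron sequence seq1192 (10.52, adjusted p = 4.27e-05, edgeR). Both had no counts in control oxidized RNA, so the fitted values depend on the prior count. With that group at 3 counts per library the interaction was at least 96.9-fold and at least 67.9-fold.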

How the results depend on the processing

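Of the 1250 tested sequences, 216 rose and 12 fell for methyltransferase against control in oxidized RNA, and scaling and filters moved these counts most. With total counts 127 rose and 760 fell, with upper-quartile scaling 130 fell, with DESeq2 size factors 6 fell, and with DESeq2's Wald test 3 fell. A minimum count in every group left 3 and 0, only the libraries compared 91 and 1, sums by locus 54 and 0, and an adjusted p under 0.01 left 2 falling. In non-oxidized RNA the Wald test called 3 higher, and every edgeR setting called 0. On oxidation of control RNA, where 169 rose and 291 fell, the counts rising were 941 (total counts), 627 (upper quartile), 110 (DESeq2 size factors), 63 (Wald), 23 (minimum in every group), 80 (only libraries compared), 29 (by locus) and 51 (p under 0.01), and the counts falling were 149 (total counts), 60 (minimum in every group) and 76 (by locus). On oxidation of methyltransferase RNA, where 24 rose and 163 fell, the counts rising were 144, 113, 7, 15, 5 and 2 (total counts, upper quartile, minimum in every group, Wald, by locus, p under 0.01), and those falling were 45 and 57 (minimum in every group, by locus). Interaction counts were 59, 1 and 38 higher (total counts, minimum in every group, by locus) and 5, 642, 72, 0, 1, 1 and 0 lower (DESeq2 size factors, total counts, upper quartile, minimum in every group, Wald, by locus, p under 0.01).

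The settings by 3′ end were chosen after seeing the data. Sequences ending at box D kept 17 falling on oxidation of control RNA under a minimum in every group, and 112, 3 and 76 rising for methyltransferase against control (total counts, minimum in every group, only libraries compared). For full-length sequences the same settings gave 16 falling and 99, 2 and 70 rising, and 14 falling on oxidation of methyltransferase RNA under a minimum in every group. For 5′ pieces on oxidation of control RNA the counts rising were 78, 647, 464, 19, 44 and 54 (DESeq2 size factors, total counts, upper quartile, minimum in every group, Wald, only libraries compared) and falling 6, 22 and 32 (total counts, upper quartile, minimum in every group), and for methyltransferase against control 4, 9, 0 and 5 rose (total counts, upper quartile, minimum in every group, only libraries compared). For 3′ pieces 8, 0 and 8 fell and 10, 0 and 5 rose (total counts, minimum in every group, only libraries compared). The causes were not tested. With total counts the log2 fold change on oxidation of control RNA turned sign for seq5244 (2.32), seq3131 (1.95), seq3663 (0.82), seq5251 (3.93, and 1.30 with upper quartile) and seq1109 (1.99). Between plasmids in oxidized RNA it turned for seq9812 (-0.89) and seq10347 (-2.67, with -0.54 by upper quartile and -0.16 without the second control oxidized library, the range without 1 library being -0.16 to 1.17).

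As shares of listed counts, counting only sequences with a genomic match gave 12.9% (16 to 29), 5.88% (30 to 49) and 5.34% (50 to 80) in control oxidized RNA, 3.55% (50 to 80) in control non-oxidized, 0.372%, 0.207% and 7.73% in methyltransferase non-oxidized and 0.559%, 0.338% and 0.798% in methyltransferase oxidized RNA. Leaving out sequences 1 substitution from a miRNA gave 0.35% and 0.194% (16 to 29 and 30 to 49) in methyltransferase non-oxidized, 0.51%, 0.308% and 0.728% in methyltransferase oxidized and 3.41% (50 to 80) in control non-oxidized RNA.

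Leaving out 1 library at a time gave 218 to 257 rising and 5 to 14 falling for methyltransferase against control in oxidized RNA, 63 to 195 and 278 to 316 on oxidation of control RNA, 4 to 24 and 128 to 174 on oxidation of methyltransferase RNA, and 153 to 205 and 2 to 16 for the interaction. The rising count on oxidation of control RNA was 85 and 63 without the first and second control non-oxidized library, 83 without the first control oxidized and 106 without the second methyltransferase oxidized library. That on oxidation of methyltransferase RNA was 14 and 14 without either control non-oxidized, 4 and 10 without either methyltransferase non-oxidized and 9 and 6 without either methyltransferase oxidized library. The 5 falling for methyltransferase against control came without the second methyltransferase oxidized library. Ranges were 187 to 198 falling and 170 to 196 rising for sequences ending at box D, 168 to 182 and 153 to 181 for full-length sequences (87 to 104 falling on oxidation of methyltransferase RNA), 16 to 19 and 20 to 24 for 3′ pieces, and 48 to 144 rising, 46 to 73 falling and 11 to 38 rising between plasmids for 5′ pieces (38 without the first control oxidized library).

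With the replicate number as a block, 215 rose and 13 fell for methyltransferase against control in oxidized RNA, 181 and 296 on oxidation of control RNA, 29 and 171 on oxidation of methyltransferase RNA, and 182 and 10 for the interaction, each within 1.5 times of the count without the block. Labels give the libraries only a shared number.

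Depth limits the control oxidized libraries most: with 295094 listed counts in the smaller one, absence there bounds a sequence only to 0.00102% of counts. Fitted changes of sequences at 0 in a group depend on the prior count.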
